A study of Mus musculus with 15 samples.

Results

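Cells carry proteins that recognise RNA or DNA in the wrong place or form, and 9 genes of that system were followed here: Ifih1, Dhx58, Zbp1, Mavs, Tbk1, Ikbke, Eif2ak2, Adar and Trex1. They were taken by symbol from the array annotation, with every noncontrol probe that carries one of those symbols. No measured value set that rule, but the 9 genes were chosen with earlier results of these data known. The array holds 14 probes for them among 56605 noncontrol probes, and 13 of the 14 passed the filter on dim signals, among 28508 probes of 19506 genes. All 9 genes had at least 1 probe that passed.

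Gene expression was measured on 15 one-colour Agilent mouse arrays. Every sample was RAW264.7, a cultured mouse macrophage-like line, so 1 line stands for macrophages throughout. The groups, with 3 arrays each, were dexamethasone (DEX), fluticasone furoate (FF), the coded compounds VSG158 and VSG159, and vehicle (EtOH and DMSO). The submitters call all 4 compounds glucocorticoids, and DEX and FF are synthetic ligands of the glucocorticoid receptor. Each was given at 100 nM for 1 h before lipopolysaccharide (LPS, a bacterial membrane component that activates macrophages) at 1 ug/ml for 16 h. The same protocol is attached to the vehicle samples, whose labels name the solvents alone, so each comparison with vehicle takes LPS as common to both sides. The labels do not pair compounds with solvents, and they do not say whether replicates were separate cultures, so p-values measure only the spread between these arrays. The series text speaks of duplicates while the labels give 3 replicates a group, so what each replicate stands for is not settled.

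Ifih1 encodes MDA5, a helicase that binds long double-stranded RNA in the cytosol, and Dhx58 encodes LGP2, a relative without signalling domains that modulates MDA5. MDA5 signals through Mavs, an adaptor on the mitochondrial membrane, to the kinases Tbk1 and Ikbke, which phosphorylate interferon regulatory factors and so switch on type I interferon. Zbp1 binds left-handed nucleic acids and can start inflammatory cell death, Eif2ak2 encodes PKR, the kinase that stops translation on double-stranded RNA, Adar edits such RNA, and Trex1 degrades cytosolic DNA. Several of these genes are themselves known to be induced by interferon, and LPS makes macrophages produce interferon beta.

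In LPS-stimulated cells, 7 of the 9 genes were lower with each of the 4 steroids than with vehicle, and Mavs and Ikbke were not called with any of them. Trex1 moved furthest, to a level 2.73-fold lower with DEX and 3.49-fold lower with VSG159, and Ifih1 followed at 2.20-fold and 2.53-fold lower. A gene is called here when limma's adjusted p, by the Benjamini-Hochberg method over all 28508 probes, was under 0.05, and it is counted by its brightest probe. Called lower were 7 of 9 genes with DEX, where 23.1% of all 19504 genes with a value were called lower. FF also gave 7 of 9 (21.4% of all genes), as did VSG158 (24.6%) and VSG159 (24.9%), and none of the 9 was called higher. The 4 comparisons share the vehicle arrays, so they are not independent of each other. The median change of the 9 genes was -0.73 log2 units with DEX and -0.84 with FF, and -0.91 with VSG158 and -0.92 with VSG159, beside medians over all genes of 0.03, -0.05, -0.06 and -0.06.

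Levels below are log2 signals relative to the 75th percentile of the array, so 1 unit is a doubling, and a level of 1 probe is not compared with that of another. RNA came from whole cultures, in which fewer cells with a transcript and less transcript per cell cannot be told apart.

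**Figure D1:**
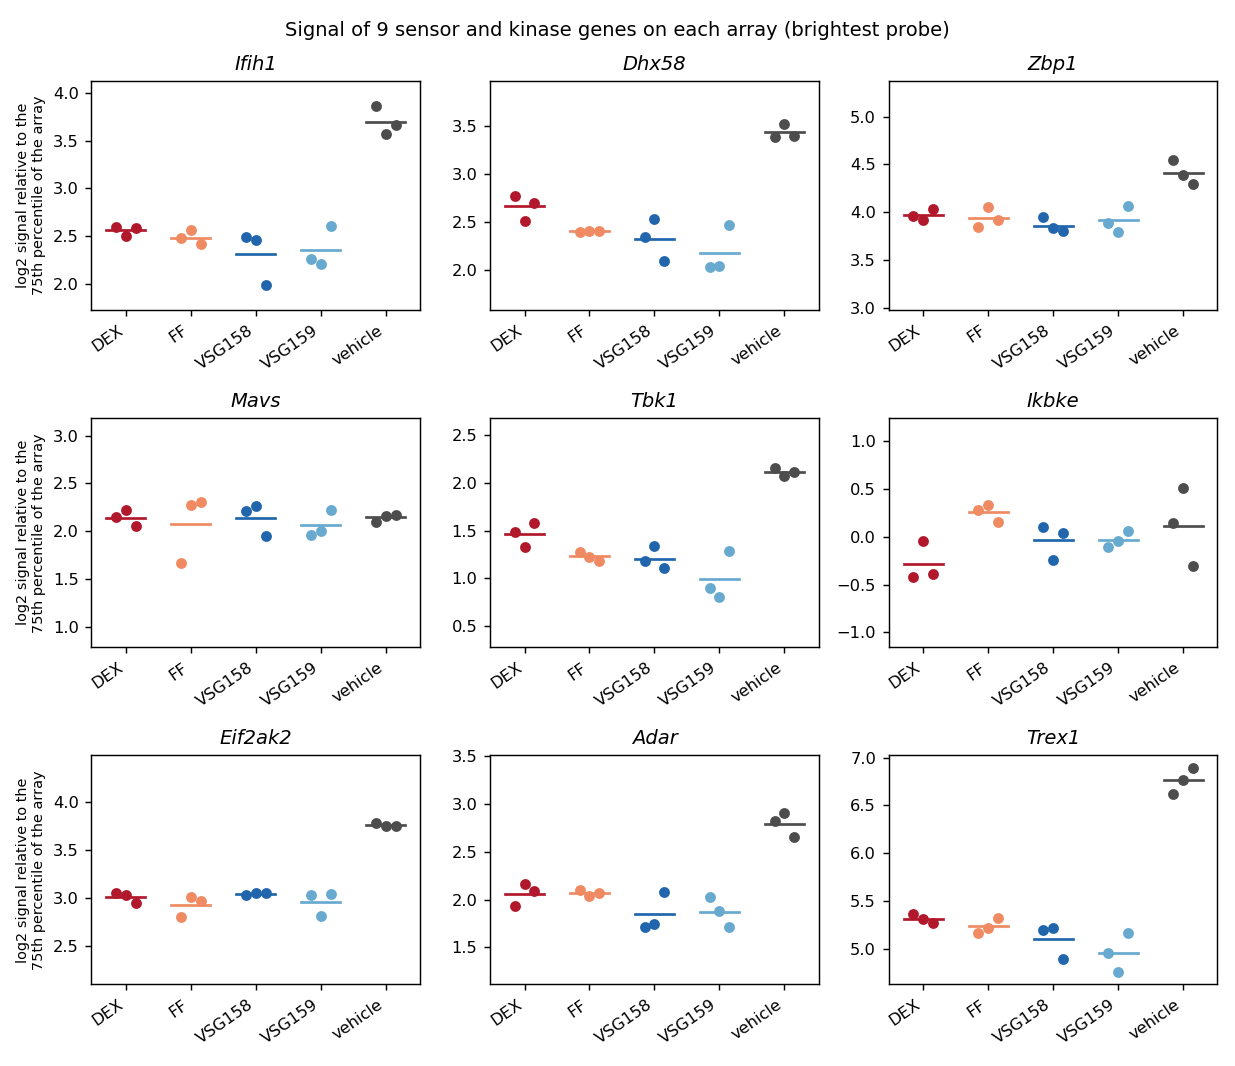
Log2 signal of each gene's brightest probe on each of the 15 arrays, relative to the array's 75th percentile, with 1 point per array, a line at the group mean, and every panel 2.4 units high. For 7 genes the vehicle arrays stand above all steroid arrays, and for Mavs and Ikbke the groups overlap.

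The array design places its probes on genome build mm9, and the first 30 of the 60 bases are shown, in the order of the scanner files, for the genes measured by a pair of probes, since those pairs decide how far a gene's change can be read from 1 probe, and for Tbk1, whose probe is split over 224 bases of genome.
Ifih1 brighter probe, chr2:62435621-62435680, minus strand: gatctcgggctacataaaattaagaaaact
Ifih1 dimmer probe, chr2:62446313-62446372, minus strand: ttgccatgctttcttgtcttaacttttaca
Dhx58 brighter probe, chr11:100556271-100556330, minus strand: ggaagatgaacgcaggagaattattatgcc
Dhx58 dimmer probe, chr11:100564085-100564144, minus strand: ctctgtcatagaactaattttaattatttt
Zbp1 brighter probe, chr2:173039307-173039366, minus strand: caagctggtcttgaacccacagagatcttc
Zbp1 dimmer probe, chr2:173032258-173032317, minus strand: acagatgtgacatgaaagtacatgtaacac
Adar brighter probe, chr3:89557158-89557217, plus strand: taatcatgtgtaagaattgtcaatgcttga
Adar dimmer probe, chr3:89554556-89554615, plus strand: cgagtcagtgtttatgattccaaaagacag
Tbk1 probe, chr10:120988364-120988587, minus strand: cccgatctaccccagctctaacaccttagt
The dimmer probes of Ifih1 and Dhx58 are assigned to Ensembl transcripts, and the other probes shown to RefSeq transcripts. The brighter Dhx58 and Zbp1 probes and the Mavs probe each shared a run of 16 bases with 1 probe designed for another gene. The others of the 14 probes shared none. The brighter Zbp1 probe, which did share a run with 1 such probe, also shared runs with 2 promoters of other genes among 32851. The dimmer Zbp1 probe shared runs with 3 such promoters, and the remaining probes with 0. The search covered exact runs in array probes and promoters alone, so it does not show whether a probe, such as the brighter Zbp1 probe, is unique among transcripts. The part of shared sequence in the signals was not tested.

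Among the sensors, Ifih1 stood at 2.59, 2.50 and 2.58 on the DEX arrays, at 2.48, 2.56 and 2.41 on the FF arrays, at 2.49, 2.46 and 1.99 on the VSG158 arrays, at 2.26, 2.21 and 2.61 on the VSG159 arrays, and at 3.86, 3.57 and 3.66 on the vehicle arrays. All 12 steroid arrays lay below all 3 vehicle arrays, with the third VSG158 array the lowest. The means ran in the order VSG158, VSG159, FF, DEX and vehicle, and among the steroids neighbours in that order overlapped. The log2 change was -1.14 with DEX and -1.21 with FF, and -1.39 with VSG158 and -1.34 with VSG159 (SE 0.15 each, n = 3 arrays a group), and limma's adjusted p ran from 1.01e-05 with VSG158 to 5.95e-05 with DEX. Few genes fell further: 7.48% of all genes had a lower change with DEX and 6.35% with FF, and 4.77% with VSG158 and 5.93% with VSG159.

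Dhx58, the modulator of MDA5, measured 2.77, 2.51 and 2.70 with DEX, 2.39, 2.40 and 2.41 with FF, 2.34, 2.53 and 2.09 with VSG158, 2.03, 2.03 and 2.46 with VSG159, and 3.39, 3.52 and 3.40 with vehicle. The vehicle arrays again stood clear of all others. In order of the means the groups ran VSG159, VSG158, FF, DEX and vehicle, and among the steroids neighbouring groups overlapped except FF and DEX, whose arrays did not meet. The change was -0.77 with DEX and -1.04 with FF, and -1.11 with VSG158 and -1.26 with VSG159 (SE 0.14), with limma's adjusted p of 0.000695, 6.67e-05, 3.88e-05 and 1.37e-05.

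Zbp1, the sensor of left-handed nucleic acids, is measured by 2 probes, which the design assigns to different transcript variants. The brighter one read 3.96, 3.91 and 4.03 with DEX, 3.85, 4.06 and 3.91 with FF, 3.95, 3.83 and 3.80 with VSG158, 3.88, 3.79 and 4.06 with VSG159, and 4.55, 4.38 and 4.29 with vehicle. The dimmer one read 1.99, 2.01 and 1.84 with DEX, 1.93, 1.91 and 2.03 with FF, 1.92, 1.92 and 2.12 with VSG158, 1.80, 1.69 and 2.09 with VSG159, and 2.98, 2.99 and 2.80 with vehicle. On both probes every steroid array lay below every vehicle array, and the 4 steroids overlapped. The fall was small on the brighter probe, at -0.44 with DEX and -0.47 with FF, and -0.55 with VSG158 and -0.50 with VSG159 (SE 0.10, limma adjusted p 0.000813 to 0.00376), and larger on the dimmer one, at -0.97, -0.96, -0.94 and -1.06 in the same order (SE 0.11, limma adjusted p 1.20e-05 to 3.47e-05). The call on the brighter probe ended for all 4 steroids when arrays were scaled to their median (-0.47, -0.42, -0.61 and -0.42, adjusted p 0.0642 to 0.218), and that on the dimmer probe did not (0.00304 to 0.00535). With FF it also ended under normexp background correction (-0.34, adjusted p = 0.0854) and in the deposited value table (-0.34, adjusted p = 0.189).

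Mavs, the adaptor between the RNA helicases and the kinases, did not follow the sensors. Its probe read 2.15, 2.22 and 2.05 with DEX, 1.67, 2.27 and 2.30 with FF, 2.21, 2.26 and 1.95 with VSG158, 1.96, 2.01 and 2.22 with VSG159, and 2.10, 2.16 and 2.17 with vehicle. Every steroid group had arrays on both sides of a vehicle array, and the lowest value of all was the first FF array. The change was -0.01 with DEX (95% CI -0.35 to 0.34), -0.07 with FF (-0.41 to 0.28), -0.01 with VSG158 (-0.35 to 0.34) and -0.08 with VSG159 (-0.43 to 0.26), with limma's adjusted p between 0.705 and 0.982. These intervals do not reach the fall of Ifih1 with any steroid. The means ran in the order VSG159, FF, VSG158, DEX and vehicle, and all groups overlapped.

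Of the pair of kinases that act on interferon regulatory factors, Tbk1 was called lower with every steroid and Ikbke with none. Tbk1 read 1.49, 1.33 and 1.58 with DEX, 1.28, 1.23 and 1.19 with FF, 1.18, 1.33 and 1.11 with VSG158, 0.90, 0.80 and 1.28 with VSG159, and 2.15, 2.07 and 2.12 with vehicle. All steroid arrays were below the vehicle arrays. The means ran in the order VSG159, VSG158, FF, DEX and vehicle, and the DEX arrays did not meet those of FF or VSG159. The change was -0.65 with DEX and -0.88 with FF, and -0.91 with VSG158 and -1.12 with VSG159 (SE 0.12), with limma's adjusted p of 0.00105, 9.30e-05, 7.76e-05 and 1.37e-05. With DEX the call ended under median scaling (-0.67, adjusted p = 0.0533).

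Ikbke, the relative of Tbk1, read -0.42, -0.04 and -0.39 with DEX, 0.28, 0.34 and 0.15 with FF, 0.10, -0.24 and 0.04 with VSG158, -0.11, -0.04 and 0.06 with VSG159, and 0.14, 0.51 and -0.31 with vehicle. The vehicle arrays spread over the whole range of the steroid groups except the first and last DEX arrays, which were lower still. The change was -0.40 with DEX (95% CI -0.80 to -0.0002, limma adjusted p = 0.0929), 0.14 with FF (-0.26 to 0.54), -0.15 with VSG158 (-0.55 to 0.25) and -0.14 with VSG159 (-0.54 to 0.26). The DEX interval includes the Tbk1 change of -0.65 with DEX, while those of the other steroids do not include their Tbk1 changes. Without vehicle replicate 3 the DEX change was -0.61 and was called (limma adjusted p = 0.00922). With array weights in the fit it was -0.48 and was called too (limma adjusted p = 0.0358). The means ran in the order DEX, VSG158, VSG159, vehicle and FF, and the FF arrays did not meet those of the other steroids. A second Ikbke probe was above background on 0 of 15 arrays and was not tested.

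Within each array, the difference between Tbk1 and Ikbke shifted by -0.75 log2 units between the 12 steroid arrays and the 3 vehicle arrays (exact permutation test over 455 splits, two-sided p = 0.0220, 0.0330 adjusted over 6 such pairs). That difference was 0.84 to 1.97 on the steroid arrays and 1.56 to 2.42 on the vehicle arrays, so the ranges overlapped. For Tbk1 and Mavs the shift was -0.85 (exact permutation p = 0.00440, the smallest these splits can give, adjusted 0.0132), and the ranges of that difference did not meet. On slide 1 alone, with 5 steroid and 3 vehicle arrays, the shifts were -0.89 for Tbk1 and Ikbke and -0.98 for Tbk1 and Mavs, with exact permutation p of 0.0714 and 0.0357 and an adjusted p of 0.107 for both. Arrays of 4 treatments are pooled in these tests, and the shift was not tested for each steroid. The pairs were chosen with earlier results of these data known, and the tests reuse the array values given above. Their p-values are thus no evidence beyond those values. The splits also exchange arrays between slides, although all vehicle arrays lay on slide 1.

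Eif2ak2, the PKR kinase, read 3.05, 3.03 and 2.94 with DEX, 2.80, 3.01 and 2.97 with FF, 3.03, 3.05 and 3.05 with VSG158, 3.03, 2.81 and 3.04 with VSG159, and 3.78, 3.75 and 3.75 with vehicle. The steroid arrays formed 1 band below the vehicle arrays. The means ran in the order FF, VSG159, DEX, VSG158 and vehicle, with neighbouring steroid groups overlapping. The change was -0.75 with DEX and -0.84 with FF, and -0.72 with VSG158 and -0.80 with VSG159 (SE 0.087), with limma's adjusted p from 8.71e-06 with FF to 3.10e-05 with VSG158. That SE was the smallest among the 9 genes.

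Adar, which edits adenosines in double-stranded RNA, read 1.94, 2.17 and 2.09 with DEX, 2.10, 2.04 and 2.07 with FF, 1.71, 1.74 and 2.08 with VSG158, 2.02, 1.88 and 1.71 with VSG159, and 2.82, 2.91 and 2.65 with vehicle. All steroid arrays were below the vehicle arrays. The means ran in the order VSG158, VSG159, DEX, FF and vehicle, and neighbouring steroid groups overlapped. The change was -0.73 with DEX and -0.72 with FF, and -0.95 with VSG158 and -0.92 with VSG159 (SE 0.12), with limma's adjusted p from 5.19e-05 with VSG158 to 0.000437 with DEX.

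Trex1, the exonuclease that clears cytosolic DNA, read 5.36, 5.32 and 5.27 with DEX, 5.17, 5.22 and 5.33 with FF, 5.20, 5.21 and 4.89 with VSG158, 4.96, 4.75 and 5.16 with VSG159, and 6.62, 6.77 and 6.90 with vehicle. More than a unit lay between the highest steroid array and the lowest vehicle array. In order of the means the groups ran VSG159, VSG158, FF, DEX and vehicle, and neighbouring steroid groups overlapped. The change was -1.45 with DEX and -1.53 with FF, and -1.66 with VSG158 and -1.80 with VSG159 (SE 0.12), with limma's adjusted p of 2.55e-06, 1.20e-06, 6.29e-07 and 3.20e-07. A lower change was found for 4.16% of all genes with DEX and 3.81% with FF, and 2.90% with VSG158 and 3.0% with VSG159. For the falling genes other than Ifih1 and Trex1, that share ran from 6.78% (Dhx58 with VSG159) to 27.1% (Zbp1 with VSG159).

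**Figure D2:**
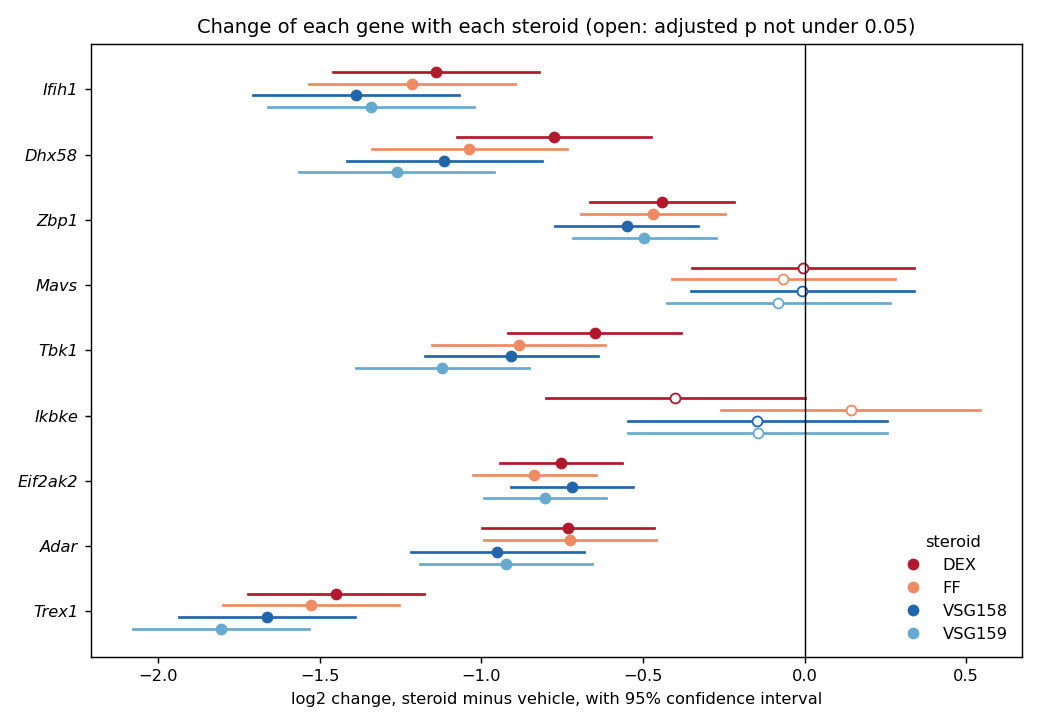
Log2 change of each gene's brightest probe with each steroid, as steroid minus vehicle (points) with the 95% confidence interval of the limma fit (lines), n = 3 arrays a group. The intervals of 7 genes lie below 0 for all 4 steroids, from Zbp1 (-0.44 to -0.55) to Trex1 (-1.45 to -1.80), and those of Mavs include 0 throughout.

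For all 7 falling genes the 3 arrays of each steroid lay below the 3 vehicle arrays, a pattern shown by 29.7% of all genes with DEX and 30.5% with FF, and 29.9% with VSG158 and 29% with VSG159. A call in 1 gene is thus a common event on these arrays. As a check of the treatment, Fkbp5, a glucocorticoid receptor target, was higher by 3.50 log2 units with DEX and 3.50 with FF, and 3.60 with VSG158 and 3.37 with VSG159 (SE 0.14). Nos2, which LPS induces in macrophages, was at 6.85 with DEX and at 8.30 with vehicle, a change of -1.45, and it changed by -2.55 with FF, -2.36 with VSG158 and -2.69 with VSG159 (SE 0.13). All 10 macrophage markers examined passed the filter, and the sum of their linear signals, in multiples of the array's 75th percentile, was 919 to 1080 with DEX, 924 to 988 with FF, 886 to 986 with VSG158, 983 to 1064 with VSG159 and 968 to 1102 with vehicle. Single markers did move, with 3 called lower and 3 higher with DEX, 4 and 2 with FF, 4 and 3 with VSG158, and 3 and 2 with VSG159.

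Markers of other cell types were mixed. Of the epithelial markers 0 of 4 were tested, and Col1a1, Pdgfra, Krt8, Cdh1, Cd3g, S100a9 and Ly6g were not well above background on any array. Of 5 fibroblast markers 2 were tested and they moved apart, Dcn at 0.66, 1.23, 0.95 and 1.16 in the same order of steroids (SE 0.25, each called) and Col1a2 at -1.38, -0.92, -0.62 and -0.96 (SE 0.51, called with DEX alone). The fibroblast sum was 0.275 to 0.380 with DEX, 0.388 to 0.599 with FF, 0.340 to 0.570 with VSG158, 0.423 to 0.451 with VSG159 and 0.241 to 0.299 with vehicle. The T cell markers Cd3e, with changes of 1.38, 0.53, 0.91 and 1.0 (SE 0.60), and Cd4, with changes of 1.03, -0.11, 0.52 and 0.80 (SE 0.56), passed the filter and were not called with any steroid. Their list summed to 49.0 to 101 with DEX, 27.5 to 48.3 with FF, 33.6 to 116 with VSG158, 27.1 to 104 with VSG159 and 25.8 to 43.2 with vehicle. The B cell marker Ms4a1 was called lower with DEX (-1.49) and VSG159 (-0.95), in a list that summed to at most 0.173 on any array. The neutrophil marker S100a8 was not called with any steroid, in a list that summed to 76.7 to 85.1 with DEX, 49.3 to 86.7 with FF, 76.5 to 90.5 with VSG158, 61.9 to 83.4 with VSG159 and 75.9 to 99.9 with vehicle. The part of these markers in the results was not tested.

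Where a gene had a second tested probe, both probes had negative changes with every steroid, but the sizes differed for some genes. On the dimmer Dhx58 probe the change was -1.44 with DEX and -1.24 with FF, and -1.53 with VSG158 and -1.51 with VSG159 (SE 0.19), each called, although VSG158 replicate 2 was not well above background there. The within-array difference between the brighter and the dimmer Dhx58 probe was 0.38 higher on the steroid arrays than on the vehicle arrays (exact permutation p = 0.00879, adjusted 0.0176), and for Zbp1 it was 0.50 higher (exact permutation p = 0.00440, adjusted 0.0132). Both genes thus had the larger fall on the dimmer probe. On slide 1 alone these shifts were 0.37 and 0.47, with exact permutation p of 0.0714 and 0.0357 and an adjusted p of 0.107 for both. The limits given for the permutation tests of Tbk1 hold for these tests too.

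For Adar a difference between probes was not detected, with the dimmer one at -0.60 with DEX and -0.76 with FF, and -0.94 with VSG158 and -0.85 with VSG159 (SE 0.10), and a shift of -0.05 between them (exact permutation p = 0.690). The dimmer Ifih1 probe lay near background and gave an uncertain picture. It read -3.87, -3.34 and -3.28 with DEX, -3.80, -4.25 and -4.00 with FF, -4.16, -5.28 and -3.59 with VSG158, -3.30, -2.48 and -3.86 with VSG159, and -3.02, -3.11 and -2.80 with vehicle. Its change was -0.52 with DEX and -1.04 with FF, and -1.37 with VSG158 and -0.24 with VSG159 (SE 0.40), and only the change with VSG158 was called by limma (adjusted p = 0.0153), with 1 of 3 VSG158 arrays well above background. Without VSG158 replicate 2 that change was -0.90 (adjusted p = 0.0595).

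**Figure D3:**
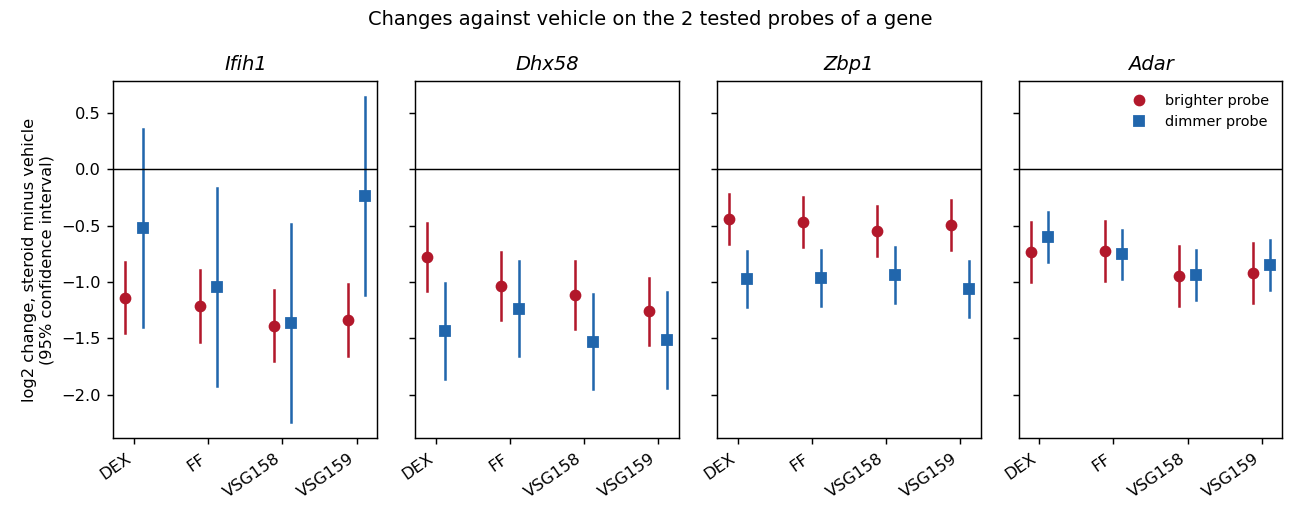
Log2 change, steroid minus vehicle, with 95% confidence intervals from limma for the brighter probe (circles) and the dimmer probe (squares) of each gene that has both tested, n = 3 arrays a group. For Zbp1 the dimmer probe falls by 0.94 to 1.06 and the brighter by 0.44 to 0.55, for Adar they lie together, and the dimmer Ifih1 probe has wide intervals.

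The steroids were set against each other at their common dose of 100 nM and the same times, in 6 pairs. For these pairs the shares of all genes with an unadjusted p under 0.05, or with arrays that do not overlap, were not counted. Such counts and gaps among the 9 genes thus have no background here. For FF against DEX, 0 of 9 genes were called by limma, where 4.08% of all genes were, and 1 of 9 had an unadjusted p under 0.05. That gene was Ikbke, 0.54 higher with FF than with DEX (95% CI 0.14 to 0.94, adjusted p = 0.109), with no overlap between the arrays. For VSG158 against DEX, 0 of 9 were called (2.11% of all genes), with 1 at an unadjusted p under 0.05, which was Dhx58 (-0.34, 95% CI -0.64 to -0.04).

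VSG159 against DEX gave 1 call among the 9 genes, beside 4.83% of all genes. Tbk1 was lower by 0.47 log2 units with VSG159, at 0.99 ± 0.26, than with DEX, at 1.47 ± 0.13 (SD, n = 3 each, limma adjusted p = 0.0498). Leaving out any single array other than VSG158 replicate 3 or VSG159 replicate 3 ended that call (adjusted p 0.0508 to 0.177). In the fit that blocks on slide the difference was -0.18 (adjusted p = 0.414). Dhx58 (-0.49, 95% CI -0.79 to -0.19, limma adjusted p = 0.0646) and Trex1 (-0.36, 95% CI -0.63 to -0.08, limma adjusted p = 0.120) lay lower with VSG159 than with DEX on all 3 arrays and were not called.

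For VSG158 against FF, for VSG159 against FF and for VSG158 against VSG159, 0 of 9 genes were called by limma, and 0% of all genes were called in each. At an unadjusted p under 0.05 these counts were 0, 1 and 0, the 1 being Trex1 (-0.28 for VSG159 against FF, 95% CI -0.55 to -0.01). The intervals bound what these arrays could show rather than equate the compounds. For VSG158 against VSG159 they reached from -0.40 to 0.48 over the 9 genes. The structures behind the codes VSG158 and VSG159 are not given in the sources used here.

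The arrays lay on 2 slides, and the groups were not spread evenly over them. Slide 1 held all vehicle and VSG158 arrays and VSG159 replicates 1 and 2, while slide 2 held VSG159 replicate 3 and all FF and DEX arrays. DEX and FF can thus be set against vehicle only across slides, and slide and treatment cannot be told apart for them except through VSG159. On slide 1 alone 7 of 9 genes were called lower with VSG158 and 7 of 9 with VSG159. Of all 28508 probes, 11879 were called with VSG158 and 12467 with VSG159 on that slide, in either direction. There the VSG159 changes were -1.91 for Trex1, -1.46 for Ifih1, -1.41 for Dhx58, -1.27 for Tbk1, -0.84 for Eif2ak2, -0.84 for Adar and -0.57 for Zbp1. VSG159 replicate 3 had the highest VSG159 level for 8 of the 9 genes, all but Adar, and VSG158 replicate 3 the lowest VSG158 level for 6 of them. The cause was not tested.

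With slide as a fixed block, 6 of 9 genes were called with DEX and 6 of 9 with FF, beside 11391 and 10176 of all 28508 probes in either direction. The call lost was Adar's brighter probe (-0.49 with DEX, adjusted p = 0.0810, and -0.49 with FF, adjusted p = 0.0912), while its dimmer probe stayed called (-0.87 with DEX and -1.02 with FF). The other 6 falling genes had larger changes under that block with both, such as Tbk1 at -1.08 with DEX and -1.32 with FF. Array position on the slide also follows group. With slide and position both in the model, 0 of 9 genes were called with DEX, 1 of 9 with FF (Trex1), 7 of 9 with VSG158 and 4 of 9 with VSG159 (Dhx58, Eif2ak2, Tbk1 and Trex1), and the whole table gave 39, 1330, 8197 and 3749 probes in place of 13420, 12270, 12990 and 12804. The point estimates of the 7 genes were still below vehicle in that model for each steroid. With DEX some had a standard error larger than the change, as Ifih1 at -0.53 (SE 0.55) and the brighter Zbp1 probe at -0.28 (SE 0.44). Mavs was at -0.70 with DEX there and was not called.

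**Figure D4:**
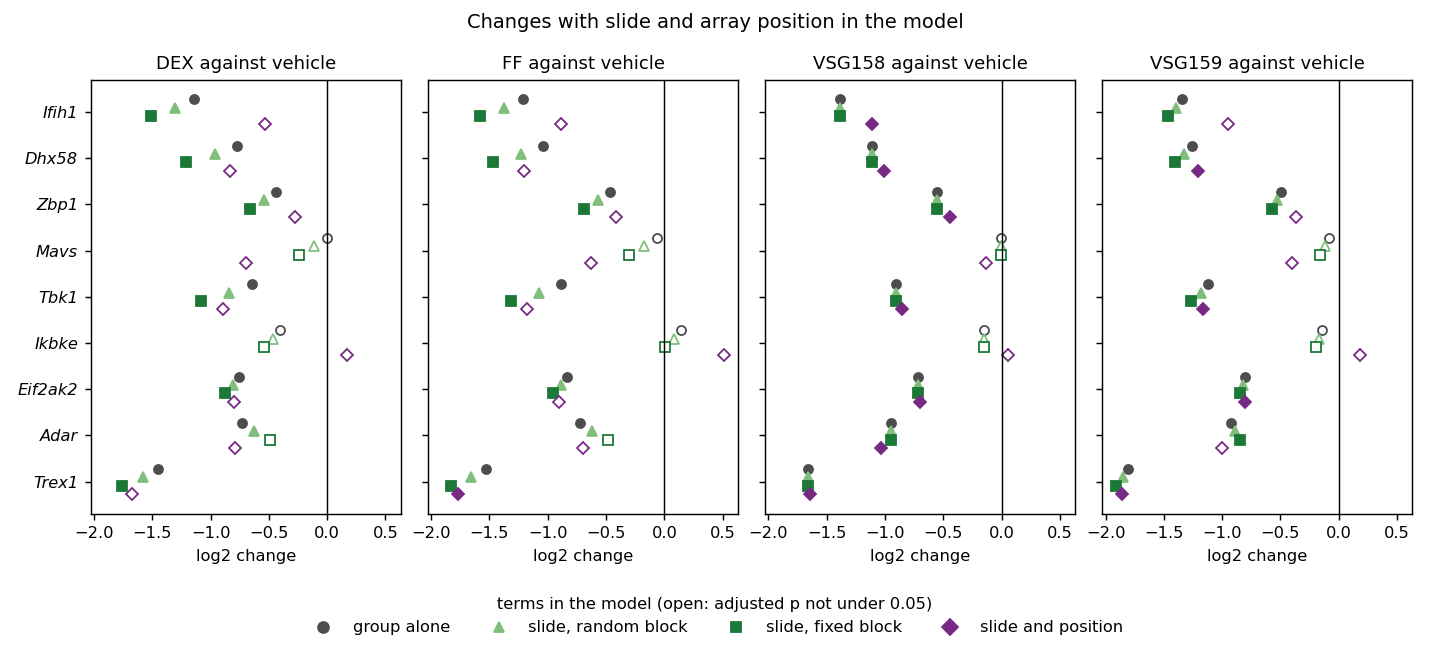
Log2 change of each gene, steroid minus vehicle, under 4 models, with filled symbols for an adjusted p under 0.05 and open symbols otherwise. The point estimates of the 7 falling genes, shown without their errors, stay left of 0 in all panels. With slide and position in the model 0 of 9 are called with DEX and 1 with FF, and 7 with VSG158 and 4 with VSG159.

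Genes around the 9 were described with 6 lists, counted in the same way. Among 12 tested adaptors and cofactors of RNA sensing, 5 fell with each steroid. Of all genes, 23.1%, 21.4%, 24.6% and 24.9% were called lower, for DEX, FF, VSG158 and VSG159 in turn. In that order 2, 3, 1 and 2 genes of the list rose, where 23.2%, 20.8%, 19.7% and 19.1% of all genes were called higher. Ddx58, which encodes the sister sensor RIG-I, changed by -0.63 with DEX and -0.88 with FF, and -0.90 with VSG158 and -0.90 with VSG159 (SE 0.085). Rnf135, a ubiquitin ligase that activates RIG-I, changed by -0.90, -1.07, -1.23 and -1.26 in the same order (SE 0.16), and the helicase Ddx60 by -0.94, -1.67, -1.14 and -1.56 (SE 0.17). The helicase Dhx15 went the other way, at 1.16, 0.81, 0.95 and 0.89 (SE 0.15). The median of the list was -0.41 with DEX and -0.04 with FF, and 0.04 with VSG158 and -0.04 with VSG159.

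DNA sensing and nucleic acid clearance gave the most rises. Of 15 tested genes, 4 fell and 5 rose with DEX, and 3 fell and 6 rose with each of FF, VSG158 and VSG159. Over all genes, 23.1%, 21.4%, 24.6% and 24.9% were called lower and 23.2%, 20.8%, 19.7% and 19.1% higher in the same order, so the falls in this list were near the background. Samhd1, which limits the supply of DNA building blocks, fell close to Trex1 in size, at -1.71 with DEX and -1.67 with FF, and -1.78 with VSG158 and -1.76 with VSG159 (SE 0.096). Ifi204, an interferon-induced DNA-binding protein, changed by -0.70, -1.41, -1.21 and -1.12 (SE 0.14). Xrcc6 and Prkdc, both part of the DNA-dependent protein kinase of double-strand break repair, were higher by 1.65 and 1.17 with DEX, 1.94 and 1.16 with FF, 1.89 and 0.82 with VSG158, and 1.68 and 1.17 with VSG159 (SE 0.15 and 0.13). The list median was 0.11 with DEX and 0.44 with FF, and 0.40 with VSG158 and 0.27 with VSG159.

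In the list of partners of TBK1 and the IKK kinases, with 12 tested genes, 6 fell with DEX and 5 with FF, and 7 with VSG158 and 6 with VSG159, beside 23.1%, 21.4%, 24.6% and 24.9% of all genes, and 1 rose with each, where 19.1% to 23.2% of all genes did. The riser was Traf3 (0.79, 0.64, 0.64 and 0.67, SE 0.10), an adaptor that links MAVS to TBK1. Traf6, a ubiquitin ligase upstream of the IKK kinases, changed by -0.95 with DEX and -1.57 with FF, and -1.33 with VSG158 and -1.60 with VSG159 (SE 0.15). Ticam1, the adaptor that takes Toll-like receptor signals to TBK1, changed by -0.72, -0.71, -0.92 and -0.99 (SE 0.11). Tank, a scaffold that binds TBK1, changed by -0.84 with FF, -0.70 with VSG158 and -0.90 with VSG159 and was not called with DEX (-0.25, SE 0.11, limma adjusted p = 0.0856). The list median was -0.31 with DEX and -0.32 with FF, and -0.42 with VSG158 and -0.47 with VSG159.

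Among 11 tested factors of interferon output, 9 fell with DEX and 9 with FF, and 10 with VSG158 and 10 with VSG159, beside 23.1%, 21.4%, 24.6% and 24.9% of all genes, and 0 rose, with medians of -0.78, -0.74, -0.78 and -0.83. Ifnb1, the gene of interferon beta, was well above background on 3 of 3 vehicle arrays and on 0 arrays of any steroid. Its level was at least 6.64-fold lower with DEX, 8.10-fold with FF, 5.77-fold with VSG158 and 9.53-fold with VSG159, taking for each dim array the higher of its own signal and the lowest signal well above background there. Ifnb1 passed the filter through the vehicle arrays alone. Its limma adjusted p (2.20e-07 to 8.53e-07) came from the measured signals and not from these bounds, so it is no support for the fold values. Stat2, a transcription factor of the type I interferon response, changed by -1.57 with DEX and -1.62 with FF, and -1.84 with VSG158 and -1.77 with VSG159 (SE 0.13). Irf5 changed by -1.17, -1.34, -1.38 and -1.39 (SE 0.11).

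Among 13 effectors of double-stranded RNA and eIF2alpha kinases, 7 fell with DEX and 8 with FF, and 9 with VSG158 and 7 with VSG159, and 2, 2, 2 and 1 rose, where 21.4% to 24.9% of all genes were called lower and 19.1% to 23.2% higher, with medians of -0.41, -0.48, -0.53 and -0.43. Oasl2 and Oasl1, relatives of the RNA-activated oligoadenylate synthetases, changed by -1.61 and -1.19 with DEX, -1.84 and -1.51 with FF, -2.10 and -1.49 with VSG158, and -2.0 and -1.54 with VSG159 (SE 0.098 and 0.093). Ppp1r15a, which directs removal of the phosphate that PKR puts on eIF2alpha, changed by -0.82, -1.33, -1.35 and -1.64 (SE 0.096). Downstream of ZBP1, Mlkl, the executioner of necroptosis, changed by -0.88 with DEX and -1.16 with FF, and -1.15 with VSG158 and -1.24 with VSG159 (SE 0.10). Ripk3, the kinase between ZBP1 and MLKL, changed by -0.50, -0.55, -0.65 and -0.64 (SE 0.073). Of the 5 genes of that death pathway, 4 fell with DEX and 3 with FF, and 4 with VSG158 and 4 with VSG159, and 1, 1, 0 and 0 rose, beside the same shares of all genes. The riser, named after its values were seen, was Fadd, an adaptor of caspase-8, at 0.46 with DEX and 0.71 with FF (SE 0.16).

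**Figure D5:**
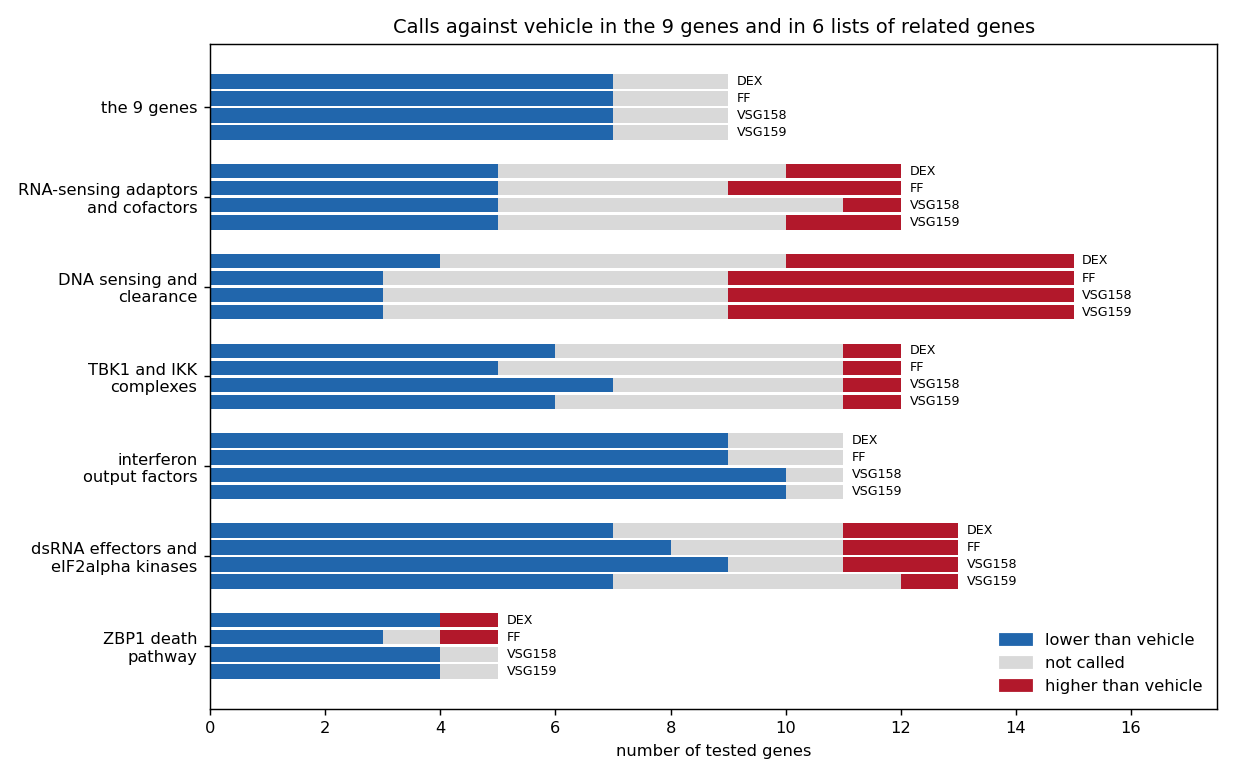
Number of tested genes called lower than vehicle, not called or called higher than vehicle by limma (adjusted p under 0.05), for the 9 genes and 6 lists of related genes, with 1 bar per steroid. The 9 genes and the interferon output factors have no gene called higher, and DNA sensing and clearance has 5 or 6.

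As a description over the 15 arrays, the genes whose log2 signals correlated most with each of the 9 were looked up among 12579 named genes. Ifih1 was closest to Zufsp (Pearson r = 0.996), Dhx58 to Blcap (0.991), Trex1 to Mok (0.993) and Eif2ak2 to Stk40 (0.987). Tbk1 was closest to Smcr8 (0.986), Zbp1 to Ehd4 (0.977), Adar to Grina (0.975), Ikbke to G6pd2 (0.935) and Mavs to Opa1 (0.848). For the 7 falling genes the points are 12 steroid and 3 vehicle arrays with a gap between them.

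The RefSeq promoter table (build GRCm38.p6) matched 7 of the 9 genes, with 10 promoters among 32851. In the 250 bases before the gene start, searched on both strands, an interferon response element, written as GAAA, any 2 bases and GAAA again, occurred in 0 of the 10 promoters, beside 2.98% of all. The glucocorticoid receptor half-site AGAACA occurred in 1, that of Trex1, beside 16.1% of all. These are matches of letters only.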

How the data were processed

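Per the file headers, the authors scanned 15 one-colour arrays with Feature Extraction 10.7.3.1 on a design that names build mm9. The deposited scanner files hold, per spot, a processed signal intensity, background-subtracted within 1 array. The deposited value table holds log2 values and was used as an alternative alone, with 0 columns left unused. Other versions are not given in the sources used here.

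Of 62976 spots an array, 3671 controls and outlier-flagged spots were left out, replicate spots were averaged per probe, and each array's log2 intensities were centred on their 75th percentile. The 75th percentile was 695 to 1223, and between 39.6% and 50.4% of noncontrol spots exceeded background. A probe was tested if well above background on at least 2 of 3 arrays of a group. The number of arrays limits the precision. All 28508 such probes were fitted together in limma 3.58.1 (R 4.3.3, data.table version 1.17.8), without covariates beside the 5 groups (residual degrees of freedom 10, prior 1.79), in 10 two-sided contrasts, each adjusted by Benjamini-Hochberg and called under 0.05. Missing spots left 2298 values out of the fit, 0 of them in the 14 probes. On simulated data the fit called 43 of 50 probes lowered and 40 of 50 raised by 2 log2 units, and 27 of 50 lowered and 35 of 50 raised by 1 log2 unit, for DEX against vehicle, among 28508 probes. Only those probes were changed there, and on the DEX arrays alone, while the fit to the real arrays called 13420 probes for DEX. The adjustment is stricter when few probes change, so these rates do not give the power of the real comparison.

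Named genes are the 9, and in each related list up to 4 genes with the smallest p of limma's F test over the 5 groups, excepting the markers, Fkbp5 and Nos2. A gene that this rule names is not reported here. The 9 genes, the lists and the tests were chosen with earlier results of these data known. Alternatives were other scalings, background correction, filters, slide, position, replicate number, array weights and omitted arrays. Same-numbered arrays did not deviate together (6 of 30 pair correlations over 0.1, range -0.531 to 0.289), so replicate numbers were not taken as pairs. Gene names are those of the files. Promoters are from RefSeq.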

Additional observations from a re-analysis of the deposited data

How the results depend on the processing

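The count of genes called lower than vehicle fell under slide and array position to 0 with DEX, 1 with FF and 4 with VSG159. Under all other alternatives it was 5 to 8 with DEX, 6 or 7 with FF and VSG159 and 6 or 7 with VSG158, and no call turned its direction. The calls over all 28508 probes moved too. With DEX they were 7835 under median scaling (5 genes), 13420 in the main fit (7 genes) and 15340 with array weights (8 genes). The count for VSG159 against DEX was 1, and it was 0 under median scaling, quantile normalization, the deposited value table, no filter on dim probes, outlier spots kept, slide as a fixed or random block, slide and array position, the replicate block, a fit of the 2 groups alone and, chosen after seeing the data, without the 3 arrays with over 500 non-uniform spots (VSG158 replicate 3 and VSG159 replicates 1 and 2). Over all probes, the calls in that pair were 1360 in the main fit and 0 to 1319 under these alternatives. Under normexp background correction the gene count stayed 1 with another gene, Dhx58, while Tbk1 was not called (-0.31, adjusted p = 0.217). With array weights the gene count was 3 (Dhx58, Tbk1 and Trex1), and likewise 2 for FF against DEX and 3 for VSG159 against FF. Over all probes, array weights gave 4924, 5429 and 1964 calls in these pairs in turn, where the main fit gave 1360, 1216 and 0. The higher gene counts thus came with more calls over all probes. Leaving out 1 array at a time gave 7 or 8 genes with DEX against vehicle, 7 with the other steroids, 0 to 2 for VSG159 against DEX and 0 for the other pairs. For VSG159 against DEX, 2 genes were called without VSG158 replicate 3 or VSG159 replicate 3, beside 1703 and 1892 of all probes. The omissions with 0 genes called there had 244 to 1356 of all probes called. With the replicate number as a block, which does not pair these arrays, 7 genes were called with each steroid and 0 for VSG159 against DEX, whose Tbk1 call had adjusted p = 0.0878, and 1 of 15 arrays correlated best with an array of its own number. The causes were not tested. Scaling by the median moved the median of all genes by at most 0.14 log2 units, in VSG158 against VSG159. Calls of the 2 dimmest probes are limited by signal near background.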
